A study of Mus musculus with 23 samples.

Results

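The Gm10800 repeat-like gene group is made of 10 predicted mouse genes, Gm10800, Gm10801, Gm21738, Gm10715, Gm10717, Gm10718, Gm10719, Gm10720, Gm10721 and Gm10722, out of 22488 genes in the count table. The members were chosen by their symbols, from their levels in these same libraries, so their levels and differences between inputs are given as a description with no test. All 10 rows were found in the table. The study asked how a low-input RNA sequencing method performs as the input shrinks; the method copies RNA from an oligo-dT primer and fragments the cDNA with Tn5, an enzyme that attaches adapters as it cuts. It made 23 libraries from C57 mice aged 6 to 18 weeks. T cells of the spleen, sorted as CD3+, gave 12 libraries, with 3 each from 100, 500, 1000 and 10000 cells. The other 11 libraries came from diluted RNA, 2 of them from 0.1 ng and 3 from each of 0.5, 1 and 5 ng. By the series text this RNA came from spleen, but the samples are labelled raw 264.7, a macrophage cell line, so it is called diluted RNA here. Nothing in the labels tells if replicates are separate animals, so p-values measure only the spread between these libraries, which may be technical.

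The members carry the letters of the mouse major satellite, also called gamma satellite. This is a short A- and T-rich unit repeated head to tail in long arrays beside the centromeres of mouse chromosomes. These arrays form pericentromeric heterochromatin, which is packed by DNA methylation, methylated histones and the HP1 proteins that bind them, and which is usually transcribed at a low level. Gene annotation has placed predicted coding genes on stretches of the repeat, and no protein function is known for them. Odorant receptor (Olfr) genes, the family used beside the members as a marker of background, serve smell in sensory neurons of the nose and have no known role in most spleen cells.

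One stretch of 234 bases from the transcript of the 5 members with the highest mean level, and of Gm10721, one of the least counted, is shown to let the copies be compared by eye. Each comes from GENCODE release M21 on GRCm38, runs 5′ to 3′ along the annotated transcript, and has in capitals the 30-base string that all 10 members share.
Gm10800: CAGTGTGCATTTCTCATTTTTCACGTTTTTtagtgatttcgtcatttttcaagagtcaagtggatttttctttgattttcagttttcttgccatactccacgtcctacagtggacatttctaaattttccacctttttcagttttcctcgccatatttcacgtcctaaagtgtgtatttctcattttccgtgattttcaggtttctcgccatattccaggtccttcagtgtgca
Gm21738: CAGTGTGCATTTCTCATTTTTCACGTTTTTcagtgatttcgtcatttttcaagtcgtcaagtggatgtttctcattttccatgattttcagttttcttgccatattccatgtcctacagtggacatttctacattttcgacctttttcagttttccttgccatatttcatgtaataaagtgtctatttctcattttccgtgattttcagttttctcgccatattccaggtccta
Gm10801: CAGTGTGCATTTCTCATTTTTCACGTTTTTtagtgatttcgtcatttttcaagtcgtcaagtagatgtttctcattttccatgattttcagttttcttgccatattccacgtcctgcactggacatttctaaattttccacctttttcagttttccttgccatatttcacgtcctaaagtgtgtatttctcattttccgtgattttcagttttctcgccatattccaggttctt
Gm10722: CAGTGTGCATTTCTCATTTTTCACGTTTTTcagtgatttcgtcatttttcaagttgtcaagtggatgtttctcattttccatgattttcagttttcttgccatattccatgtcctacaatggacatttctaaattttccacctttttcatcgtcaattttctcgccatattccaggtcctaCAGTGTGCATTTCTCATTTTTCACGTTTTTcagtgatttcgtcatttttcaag
Gm10717: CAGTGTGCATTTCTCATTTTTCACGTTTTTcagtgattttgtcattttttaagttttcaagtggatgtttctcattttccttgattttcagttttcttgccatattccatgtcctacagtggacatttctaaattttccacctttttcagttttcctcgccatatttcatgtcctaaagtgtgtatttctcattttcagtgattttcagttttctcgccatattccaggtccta
Gm10721: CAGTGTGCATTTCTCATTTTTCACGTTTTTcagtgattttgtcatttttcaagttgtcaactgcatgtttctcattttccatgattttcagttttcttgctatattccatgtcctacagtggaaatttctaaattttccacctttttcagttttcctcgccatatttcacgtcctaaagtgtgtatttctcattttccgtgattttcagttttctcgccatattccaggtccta
Most of the stretches differ at scattered positions. Gm10722 also lacks a block of bases that the others hold, so it reaches the shared string a second time within the 234 bases. From that block on it is out of register with the others. Its aligned identity to the Gm10800 stretch was 84.1%, against 90.1% (Gm21738) to 91.9% (Gm10801) for the other stretches shown. The Gm10800 stretch is slightly out of register too, and ends with the first bases of the shared string.

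In GENCODE M21, 7 members lie on chromosome 9, Gm10800 and Gm10801 lie on chromosome 2, and Gm21738 lies on chromosome 14. Coordinates are not given, because the submitters list another build, mm8. The transcript read for each member, the first by its ID where several are annotated, had 504 to 684 bases and was coding from end to end, so the annotation gives it no UTR. Slid along itself by 100 to 300 bases, the transcript matched itself best at a shift of 234 bases in 8 of the 10 members, with 52.7% to 67.6% of bases matching over the 10. Gm10800 matched best at 225 bases (56.3%) and Gm10801 at 231 bases (52.7%). At a shift of 58 bases Gm10800 matched itself at 51.2% of bases and Gm21738 at 58.6%, so a shorter unit is visible within the longer one. GC content was 34.3% to 36.0%, against a median of 50.5% over 102242 transcripts of genes in the table. T made up 45.8% to 47.5% of bases on the annotated strand. The longest run there was 3 or 4 bases of A and 5 or 6 bases of T, which are A on the opposite strand.

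**Figure D1:**
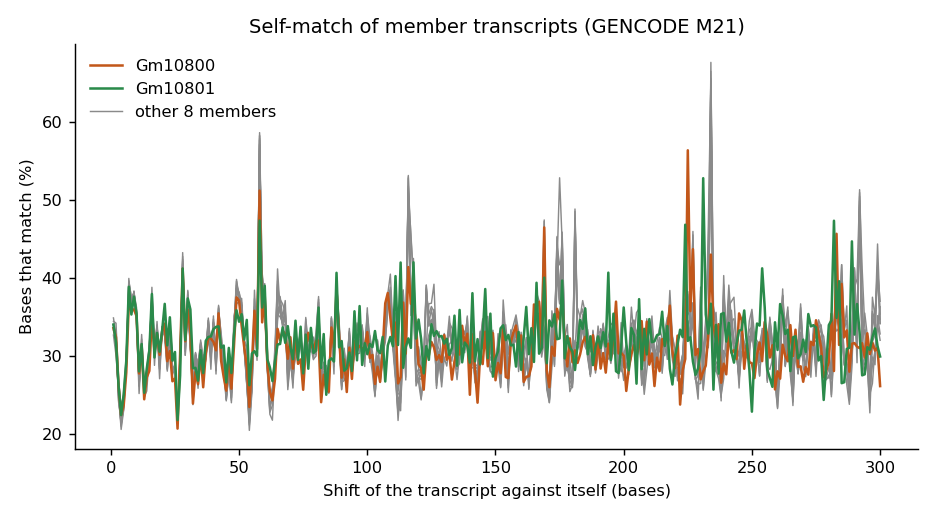
The percent of bases that match when each member's transcript is shifted against itself (vertical axis) is plotted against the shift in bases (horizontal axis), with 1 line per member. The tallest peak between 100 and 300 bases lies at 234 in 8 members, at 225 in Gm10800 and at 231 in Gm10801.

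The copies were close to each other. Over the 45 pairs of members, aligned identity ran from 88.5% (Gm10801 and Gm21738) to 97.4% (Gm10717 and Gm10719), with a median of 92.9%. Of the distinct 50-base strings of a member, 17.1% (Gm10801) to 87.4% (Gm10720) occurred in another member, and 27.2% did for Gm10800. The shared string CAGTGTGCATTTCTCATTTTTCACGTTTTT, searched on both strands, stood in 29 of 141767 annotated transcripts (0.0205%). Those transcripts belong to 13 genes, of which 12 are in the table: the 10 members, Gm11168 and Gm17535. How the authors assigned reads that match several copies is not given in the sources used here. The split of counts between members is thus uncertain, and the sum over members is the firmer value. The sum has a limit too, since members share sequence with genes outside the group. Of the distinct 50-base strings of a member, 5.27% (Gm10801) to 68.7% (Gm10720) occurred in such a gene, and 15.6% did for Gm10800. Whether counting used strand is not given either.

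Library totals ran from 1849181 to 3760980 counts for T cells and from 1737067 to 7908638 for diluted RNA. Levels are given as CPM, the count divided by the column total and scaled to a total of 1000000. T cell markers (8 genes, Lck highest) summed to 2446 to 4383 CPM in T cell libraries and 903 to 1205 CPM in diluted RNA. B cell markers (6 genes, Ighm highest) summed to 24559 to 35864 CPM in all 11 diluted RNA libraries, above the macrophage and monocyte markers (6 genes, Lyz2 highest) at 2157 to 2696 CPM. Erythroid markers summed to 2177 to 4029 CPM and neutrophil markers to 3111 to 4622 CPM in diluted RNA. Markers of T cells, B cells, macrophages, erythroid cells and neutrophils were thus all present in it. Replicate 3 of the 100-cell group stood apart: its B cell markers reached a sum of 13324 CPM, where the remaining T cell libraries had 883 to 2468 CPM. Its erythroid (1281 CPM), neutrophil (1778 CPM) and macrophage markers (1091 CPM) were also the highest of the T cell libraries. Its T cell markers were the lowest of them at 2446 CPM, where the remaining T cell libraries had 3755 to 4383 CPM. It also had the largest library total among them. For the comparisons with 100 cells, values without it stand beside those with it. In such bulk libraries, fewer cells of a type and less RNA per cell cannot be told apart.

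Summed over the 10 members, the level was highest at the smallest cell inputs. It was 99992, 104552 and 58611 CPM in the 3 libraries from 100 cells, 87054, 83529 and 85250 CPM from 500 cells, 67058, 66470 and 68625 CPM from 1000 cells, and 46125, 49435 and 42953 CPM from 10000 cells. These sums are 4.30% to 10.5% of all counts of a T cell library. The ranges of neighbouring inputs did not overlap except between 100 and 500 cells, where replicate 3 at 100 cells lay below all 500-cell libraries. In diluted RNA the sum was 35539 and 42689 CPM at 0.1 ng, 5913, 6410 and 6841 CPM at 0.5 ng, 4414, 4765 and 5114 CPM at 1 ng, and 5079, 6558 and 6157 CPM at 5 ng. Here the largest step lay between 0.1 ng and the other inputs. The 0.5 and 1 ng ranges both overlapped that of 5 ng and did not overlap each other. In order of the mean, the groups ran from 100 cells (87718 ± 25311 CPM, SD, n = 3) through 500 cells (85277 ± 1762 CPM), 1000 cells (67384 ± 1114 CPM), 10000 cells (46171 ± 3242 CPM), 0.1 ng (39114 ± 5056 CPM, n = 2), 0.5 ng (6388 ± 465 CPM, n = 3) and 5 ng (5931 ± 765 CPM) to 1 ng (4764 ± 349.9 CPM). The lowest T cell library lay just above the highest diluted RNA library.

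**Figure D2:**
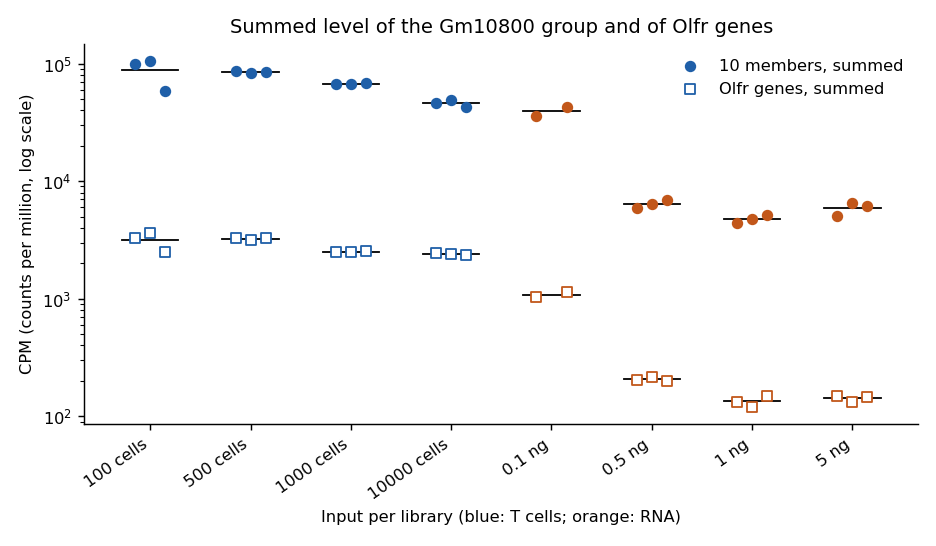
Summed CPM (vertical, log scale) of the 10 members (filled circles) and of 1134 Olfr genes (open squares) is plotted for each library by input, with T cells in blue, diluted RNA in orange and the group mean as a bar. Both sums lie higher in every library from 100 and 500 cells than from 10000 cells, and both lie lower at 0.5, 1 and 5 ng than at 0.1 ng.

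Gm10800 carried most of the group's counts. Its share of the member counts was 76.1% to 84.4% in T cell libraries and 73.3% to 83.0% in diluted RNA. It had the highest count of all 22488 genes in each of the 12 T cell libraries and in 2 of the 11 diluted RNA libraries, where at most 7 genes exceeded it. Its level was 84385, 84403 and 47656 CPM from 100 cells, 69741, 66819 and 70913 CPM from 500, 54696, 54325 and 55874 CPM from 1000, and 36243, 37643 and 33382 CPM from 10000. In diluted RNA it was 28019 and 31275 CPM at 0.1 ng, 4638, 5320 and 5509 CPM at 0.5 ng, 3646, 3779 and 4190 CPM at 1 ng, and 4071, 5438 and 4969 CPM at 5 ng. Gm10800 was lower at each step from 500 to 10000 cells with no overlap between inputs, and its 0.1 ng libraries lay below the 10000-cell libraries but far above the larger RNA inputs.

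The other 3 members with high counts followed in part. Gm21738, the copy on chromosome 14, had 9033, 11652 and 6707 CPM from 100 cells, 10812, 9362 and 8703 CPM from 500, 6921, 6809 and 6959 CPM from 1000, and 5525, 6313 and 4706 CPM from 10000. In diluted RNA Gm21738 had 3675 and 5243 CPM at 0.1 ng, and 362 to 684 CPM at 0.5, 1 and 5 ng. Its libraries from 500 and 1000 cells lay above all libraries from 10000 cells. Gm10801, the second copy on chromosome 2, had 3569, 4478 and 1926 CPM from 100 cells, 2900, 3143 and 2562 CPM from 500, 2414, 2389 and 2618 CPM from 1000, and 2280, 2228 and 1984 CPM from 10000. In diluted RNA Gm10801 had 1633 and 2369 CPM at 0.1 ng, and 127 to 261 CPM at the 3 larger inputs. Gm10801 thus spread less over the cell inputs than Gm10800, and its 0.1 ng range overlapped that of 10000 cells. Gm10722 on chromosome 9 had 2038, 3015 and 1634 CPM from 100 cells, 2704, 3163 and 2088 CPM from 500, 2320, 2187 and 2459 CPM from 1000, and 1569, 2747 and 2389 CPM from 10000. In diluted RNA Gm10722 had 1782 and 3194 CPM at 0.1 ng, and 218 to 354 CPM at the 3 larger inputs. For Gm10722 the 4 cell inputs overlapped. In diluted RNA its 0.1 ng libraries lay above all others, and its 0.5 ng libraries (260 to 354 CPM) lay above those at 1 ng (231 to 252 CPM).

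The remaining 6 members held little of the sum. Gm10717 had 306 to 567 CPM in T cells, with 333 to 567 CPM at 100 cells and 306 to 322 CPM at 10000 cells, and 21.9 to 434 CPM in diluted RNA. Gm10719 had 244 to 274 CPM at 100 cells, 262 to 319 CPM at 500, 127 to 246 CPM at 1000 and 97.9 to 121 CPM at 10000, and Gm10718 had 64.1 to 135 CPM over the T cell libraries. Both were an order of magnitude lower at 0.5, 1 and 5 ng, where Gm10719 had 5.83 to 24.3 CPM and Gm10718 7.59 to 12.5 CPM. Gm10720 (1 to 69 counts per library), Gm10715 (0 to 37) and Gm10721 (0 to 32) were near the limit of these libraries. Gm10715 had 0 counts in all 3 libraries at 1 ng, which allows up to 0.670 to 0.819 CPM per library at a floor of 3 counts, and 0.267 to 0.885 CPM at 5 ng. Gm10721 had 0 counts in 5 of the 11 diluted RNA libraries.

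**Figure D3:**
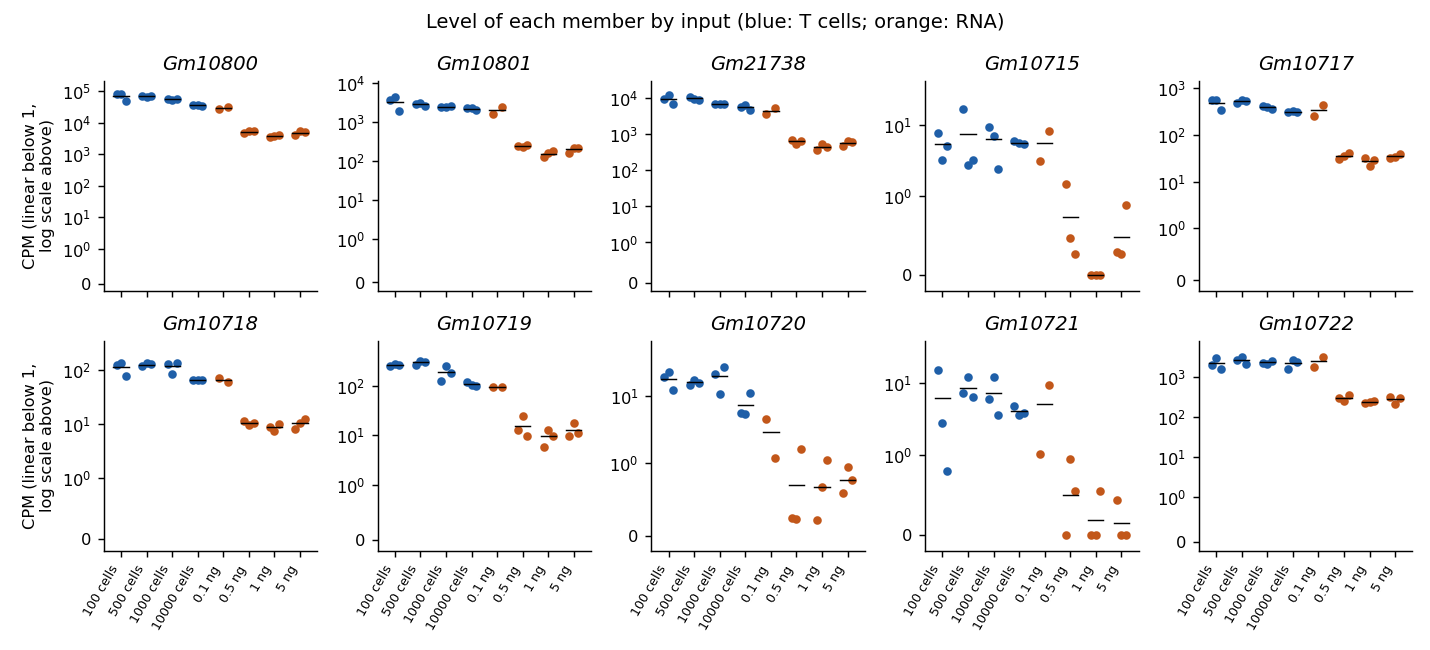
Each panel plots the CPM of 1 member (vertical, linear below 1 and log scale above) in each library by input, with T cells in blue, diluted RNA in orange and the group mean as a bar. All 10 members lie higher at 0.1 ng than at 5 ng, while Gm10722 and Gm10715 show little order over the cell inputs.

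Levels between members can be compared only per length, and the uncertain split of counts limits this too. Per kilobase of annotated exon, Gm10800 reached 54176 ± 3291 CPM per kb from 10000 cells and 7312 ± 1052 CPM per kb at 5 ng (SD, n = 3 each). Gm21738 had 8098 ± 1180 CPM per kb from 10000 cells and 838 ± 121 CPM per kb at 5 ng. Gm10720, whose coding transcript is 92.7% identical to that of Gm10800, had 11.2 ± 5.11 CPM per kb from 10000 cells and 1.13 ± 0.261 CPM per kb at 5 ng. Members with similar sequences thus differed widely in the counts given to them. The 4 with the highest CPM were the same in both materials. Of the distinct 50-base strings, 87.4% of those of Gm10720 and 27.2% of those of Gm10800 occurred in another member. Whether the gap lies in transcript level or in how reads were split was not tested.

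**Figure D4:**
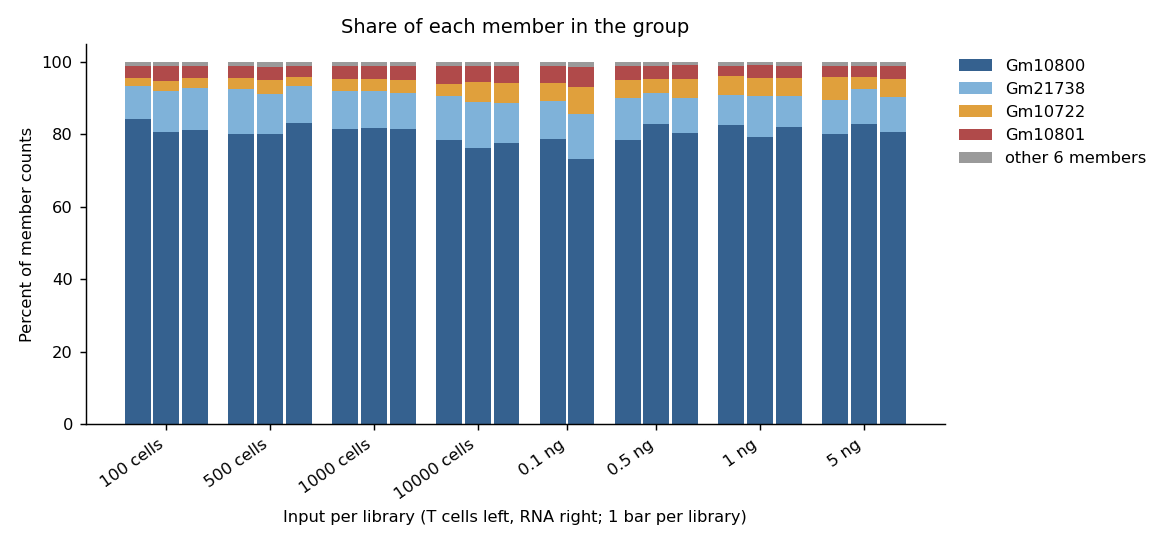
Stacked bars give the percent of all member counts (vertical) that fell to Gm10800, Gm21738, Gm10722, Gm10801 and the other 6 members, with 1 bar per library grouped by input. Gm10800 takes 73.3% to 84.4% of each bar, and its 2 lowest shares are in 0.1 ng replicate 2 and 10000-cell replicate 2.

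The first comparison set each smaller cell input against 10000 cells. The summed level was 1.90-fold higher at 100 cells, 1.85-fold at 500 and 1.46-fold at 1000. Without replicate 3, the log2 ratio of the sum at 100 cells was 1.15, in place of 0.93 with it. Libraries of a member all lay above those from 10000 cells for 6 members at 100 cells (6.16% of genes with a count did), for 8 members at 500 cells (8.39% of genes) and for 6 members at 1000 cells (7.39% of genes). All 10 members passed edgeR's filter on low counts in these 3 comparisons. Their median log2 fold change was 0.67 at 100 cells (0.04 over all genes tested), 0.87 at 500 cells (0.03) and 0.49 at 1000 cells (0.01). Gm10719 stood highest of the 7 members with at least 26 counts in every library at 100 and 500 cells, with log2 fold changes of 1.27 (SE 0.149) and 1.45 (SE 0.115). Without replicate 3 of the 100-cell group, the value at 100 cells was 1.24 (SE 0.141) for Gm10719, 1.21 (SE 0.0422) for Gm10800 and 0.15 (SE 0.221) for Gm10722. With it, Gm10800 had 1.00 (SE 0.182), 0.94 (SE 0.0267) and 0.64 (SE 0.0222) at 100, 500 and 1000 cells, while Gm10722 had -0.01 (SE 0.240), 0.24 (SE 0.127) and 0.07 (SE 0.0888). The 3 comparisons share the 10000-cell libraries.

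The second comparison set each smaller RNA input against 5 ng. At 0.1 ng the summed level was 6.59-fold higher, and for all 10 members both 0.1 ng libraries lay above all 5 ng libraries (15.9% of genes with a count did). Of the 10 members, 8 passed the filter on low counts and Gm10720 and Gm10721 did not. Log2 fold changes of the 7 well-counted members ran from 2.57 (Gm10800, SE 0.124) to 3.31 (Gm10801, SE 0.200). At 0.5 ng the summed level was 1.08-fold that of 5 ng, and only Gm10801 had all libraries above 5 ng (8.42% of genes did). At 1 ng it was 0.803-fold that of 5 ng. No member had all libraries above 5 ng (5.81% of genes did), and Gm10715, at 0 counts, had all below (7.7% of genes did). Gm10715, Gm10720 and Gm10721 did not pass the filter at 0.5 and 1 ng. Gm10800 had log2 fold changes of 0.09 (SE 0.0696) at 0.5 ng and -0.32 (SE 0.0584) at 1 ng. The 3 comparisons share the 5 ng libraries.

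The third comparison set 10000 T cells against 5 ng of diluted RNA. The summed level was 7.78-fold higher in T cells, and for all 10 members every T cell library lay above every 5 ng library (36% of genes with a count did). Log2 fold changes of the 7 well-counted members ran from 2.52 (Gm10718, SE 0.175) to 3.35 (Gm10801, SE 0.0594), and Gm10800 had 2.78 (SE 0.0443). Cell type, source and form of the input differ together between these libraries and cannot be told apart.

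Over log10 of the input, Gm10800 had a slope of -0.53 log2 units per 10-fold more cells (SE 0.0700) and of -1.42 per 10-fold more RNA (SE 0.237). Over cells, Gm10719 had a slope of -0.71 (SE 0.125) and Gm10722 one of -0.02 (SE 0.0950). Without 100-cell replicate 3 these cell slopes were -0.63 (SE 0.0220) for Gm10800, -0.75 (SE 0.123) for Gm10719 and -0.10 (SE 0.0754) for Gm10722. Over RNA the slope of Gm10722 was -1.72 (SE 0.279). The RNA slopes rest mainly on the 0.1 ng libraries. Against 5 ng, Gm10722 had a log2 fold change of 3.11 (SE 0.279) at 0.1 ng. It had 0.11 (SE 0.114) at 0.5 ng and -0.22 (SE 0.0903) at 1 ng. Gm10800 had 2.57, 0.09 and -0.32 at these inputs. The level of Gm10722 thus differed mainly at 0.1 ng over RNA inputs, and little over cell inputs.

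The Olfr genes, 1134 in the table, followed the same broad course at a lower level. Their counts summed to 3311, 3590 and 2500 CPM from 100 cells, 3278, 3139 and 3277 CPM from 500, 2496, 2474 and 2532 CPM from 1000, and 2426, 2400 and 2341 CPM from 10000. In diluted RNA they summed to 1040 and 1129 CPM at 0.1 ng, 203, 216 and 198 CPM at 0.5 ng, 132, 121 and 150 CPM at 1 ng, and 150, 131 and 145 CPM at 5 ng. The Olfr sum was thus about flat from 1000 to 10000 cells, where the member sum was still lower at 10000. Counts were spread over many Olfr genes, and over fewer of them at the smaller cell inputs. A T cell library had a count for 54.3% to 62.5% of them at 100 cells and 75.5% to 79.0% at 500 and 1000 cells. At 10000 cells this was 88.0% to 90.4%. In a diluted RNA library 10.4% to 25.0% of the Olfr genes had a count. The 3 with the highest mean, Olfr1307, Olfr1192-ps1 and Olfr1489, reached at most 35.3, 14.6 and 25.0 CPM in a T cell library. The same course over RNA inputs was seen in the vomeronasal receptor genes (Vmn1r and Vmn2r, 330 genes), which summed to 946 to 1655 CPM in T cells and 55.4 to 638 CPM in diluted RNA. Taste receptor, keratin-associated and defensin genes (Tas2r, Krtap and Defb, 133 genes) summed to 61.7 to 96.0 CPM in T cells and 3.14 to 71.8 CPM in diluted RNA.

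Over all 23 libraries, the ratio of the member sum to the Olfr sum varied far less than either sum. It was 30.2, 29.1 and 23.4 from 100 cells, 26.6, 26.6 and 26.0 from 500, 26.9, 26.9 and 27.1 from 1000, and 19.0, 20.6 and 18.4 from 10000. In diluted RNA it was 34.2 and 37.8 at 0.1 ng, 29.1, 29.7 and 34.6 at 0.5 ng, 33.4, 39.5 and 34.1 at 1 ng, and 33.9, 50.0 and 42.5 at 5 ng. Over the 23 libraries the ratio spanned 2.72-fold, against 23.7-fold for the member sum and 29.8-fold for the Olfr sum. Within T cells it spanned 1.65-fold, more than the Olfr sum at 1.53-fold and less than the member sum at 2.43-fold. Within diluted RNA it spanned 1.72-fold, against 9.67-fold for the member sum and 9.36-fold for the Olfr sum. Each smaller cell input lay above 10000 cells, by log2 differences of 0.51, 0.45 and 0.48 at 100, 500 and 1000 cells. Without 100-cell replicate 3 the difference at 100 cells was 0.62. Each smaller RNA input was on average below 5 ng, by -0.21, -0.42 and -0.22 at 0.1, 0.5 and 1 ng, with ranges that overlapped at 0.1, 0.5 and 1 ng. T cells at 10000 lay below 5 ng by -1.11.

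**Figure D5:**
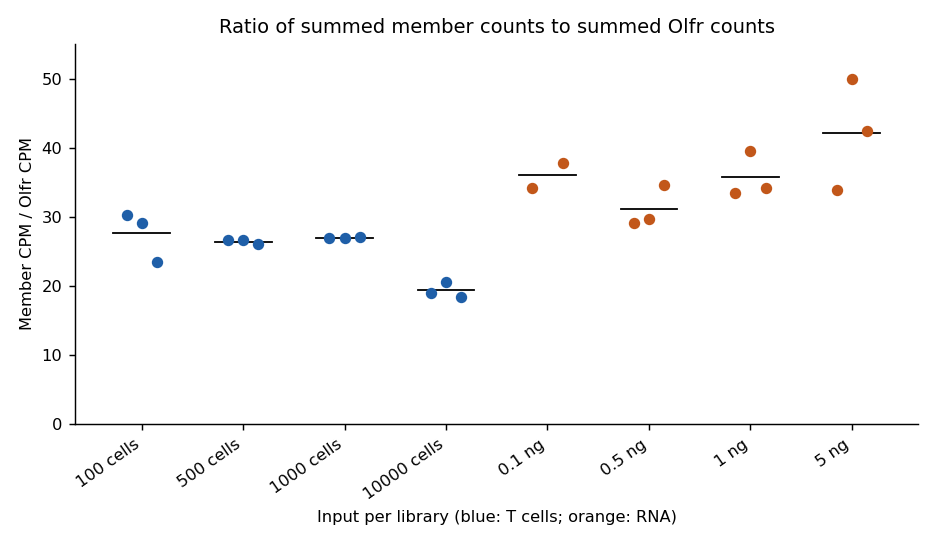
The ratio of summed member CPM to summed Olfr CPM (vertical, from 0) is plotted for each library by input, with T cells in blue, diluted RNA in orange and the group mean as a bar. The 3 libraries from 10000 cells lie between 18.4 and 20.6, below all others, and the 5 ng libraries spread from 33.9 to 50.0.

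Both non-member genes that hold the shared string were looked at. Gm11168 had 443, 244 and 154 CPM from 100 cells, 228, 294 and 452 CPM from 500, 335, 243 and 313 CPM from 1000, and 142, 139 and 155 CPM from 10000. In diluted RNA Gm11168 had 114 and 188 CPM at 0.1 ng, and 11.4 to 26.3 CPM at 0.5, 1 and 5 ng. In edgeR quasi-likelihood fits, with p adjusted by Benjamini-Hochberg over all genes tested, Gm11168 rose by 1.15 on the log2 scale at 500 cells (SE 0.156, adjusted p = 7.35e-05) and by 1.04 at 1000 cells (SE 0.102, adjusted p = 6.59e-09) against 10000 cells, each in 3 of 3 libraries. It rose by 2.73 at 0.1 ng against 5 ng (SE 0.281, edgeR adjusted p = 0.0135, 2 of 2 libraries) and was 2.61 higher in 10000 T cells than at 5 ng (SE 0.119, edgeR adjusted p = 1.41e-28, 3 of 3 libraries). The 0.1 ng call was lost without any one of the 5 ng libraries, with an edgeR adjusted p of up to 0.163. At 100 cells the log2 fold change was 0.94 (SE 0.320, edgeR adjusted p = 0.290), and without replicate 3 of that group it was 1.21 (SE 0.214, edgeR adjusted p = 0.0335). Gm17535, with 1.20 to 27.9 CPM in T cells, was 4.96 higher in 10000 T cells than at 5 ng (SE 0.682, edgeR adjusted p = 6.31e-09). It had 1 to 4 counts per 5 ng library, and 7, 30 and 81 counts in the libraries from 10000 cells. The row thus passed the filter on low counts only through the T cell libraries, so this p-value is no support for a difference. Over the cell inputs the log2 fold change of Gm17535 was -0.71 (SE 0.858) at 100 cells, -0.61 (SE 0.605) at 500 and -0.03 (SE 0.614) at 1000 against 10000 cells, with none called by edgeR, and its slope was 0.38 (SE 0.421). Gm11168 shares sequence with the members, whether it shares reads with them was not tested, and it had been seen beside them in earlier results, so it is no separate evidence of their course.

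Among 10070 genes with a mean of at least 5 CPM in both materials, the 5 whose log2(CPM + 1) followed the member sum most closely were Bicd1, Ptpn4, Tm2d1, Icos and Gm11168. They were ranked by the lower of Pearson's r over the 12 T cell libraries and over the 11 diluted RNA libraries, as a description, since the points share library depth and input. Bicd1, an adaptor of the dynein motor, had r = 0.947 over T cells and 0.938 over diluted RNA. Ptpn4, a tyrosine phosphatase, had 0.850 and 0.846, and Tm2d1, a membrane protein, had 0.824 and 0.904. Icos, a costimulatory receptor of T cells, had 0.776 and 0.809, and Gm11168 had 0.764 and 0.968. Bicd1 averaged 46.2 ± 18.5 CPM at 100 cells, 36.2 ± 2.45 at 500, 30.5 ± 1.99 at 1000 and 14.4 ± 3.11 at 10000 (SD, n = 3 each), and 24.3 ± 5.54 at 0.1 ng (n = 2), 7.33 ± 2.02 at 0.5 ng, 3.03 ± 0.499 at 1 ng and 4.55 ± 0.217 at 5 ng (n = 3 each). Of these 5 genes, Gm11168 alone shared 30-base strings with the members in GENCODE M21.

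The summed level of genes that build or silence pericentromeric heterochromatin varied little. The list held 26 genes, 24 of them in the table and all 24 tested, and their summed level lay between 2955 and 3374 CPM in all 23 libraries. Their 3 highest genes were Atrx, a chromatin remodeller that deposits histones at repeats, Smchd1, a noncanonical SMC protein of gene silencing, and Trim28, a corepressor. Against 10000 cells, edgeR called 0 of the 24 at 100 cells (0 of 14099 genes, 0%), 0 at 500 cells (3.23% of 13674 genes called) and 2 at 1000 cells (3.27% of 13415 genes called). The 0 calls over all genes at 100 cells stand beside 1691 genes with an unadjusted p under 0.05, 348 calls by DESeq2 and 357 edgeR calls without replicate 3 of the 100-cell group. Of the 24, 5 at 100 cells and 7 at 500 cells had an unadjusted edgeR p under 0.05, and DESeq2 called 1 and 4 of them. At 1000 cells Mbd1, a methyl-DNA binding protein, fell by 0.67 on the log2 scale (SE 0.136, edgeR adjusted p = 0.00205). Ehmt2, a histone methyltransferase, fell by 0.39 there (SE 0.108, edgeR adjusted p = 0.0374), a call lost without 1000-cell replicate 3 or any one 10000-cell library, with an edgeR adjusted p of up to 0.230. The counts of all genes called were 149, 174 and 150 at 500 cells and 201, 218 and 181 at 1000 cells without 10000-cell replicate 1, 2 and 3.

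In diluted RNA, edgeR called 3 of the 24 heterochromatin genes at 0.1 ng against 5 ng (11.2% of 13982 genes called). Among them Dnmt1, the maintenance DNA methyltransferase, fell by 1.33 on the log2 scale (SE 0.120) and Hells, a remodeller needed for repeat methylation, fell by 2.12 (SE 0.349). Both calls were lost without any one 5 ng library, where edgeR called 1, 0 and 0 of all genes without replicate 1, 2 and 3. Without 0.1 ng replicate 1 or 2 it called 7869 and 8075 genes, with the lone 0.1 ng library assumed to vary like the 5 ng ones. At 0.5 ng, 3 of the 24 were called (5.09% of 12558 genes), with Lbr, a nuclear envelope protein, 0.29 higher (SE 0.0744), Atrx 0.20 higher (SE 0.0524) and Dnmt3a, a de novo DNA methyltransferase, 0.42 lower (SE 0.108). Each of these 3 was lost without any one 5 ng library, where all genes called numbered 172, 206 and 202 without replicate 1, 2 and 3. Leaving out 0.5 ng replicate 2 also ended the calls of Lbr and Atrx, and leaving out 0.5 ng replicate 3 those of Lbr and Dnmt3a. At 1 ng none of the 24 was called, at 3 of 12616 genes (0.0238%), with 3 of the 24 at an unadjusted p under 0.05 and 1 (Cbx3) called by DESeq2. All genes called at 1 ng numbered 14 without 1 ng replicate 2 and 45 without replicate 3, and 107 by DESeq2.

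Between 10000 T cells and 5 ng, edgeR called 13 of the 24 heterochromatin genes at a background of 56% of 14425 genes. Of these, 7 were higher in T cells, among them Dnmt3b (0.80, SE 0.234), Kmt5c, a histone methyltransferase of pericentromeric chromatin (0.71, SE 0.153), Daxx, a histone chaperone (0.55, SE 0.101), and Dnmt3a (0.47, SE 0.0784). The 6 that were lower included Uhrf1, which guides Dnmt1 (-1.43, SE 0.127), Hells (-1.18, SE 0.172), Cbx5, the HP1 alpha protein (-0.90, SE 0.115), and Dnmt1 (-0.20, SE 0.0676). The Dnmt1 call was lost without 10000-cell replicate 3 and with library totals alone in place of TMM factors. Of 11 alternatives, Ehmt1 kept its call under 3 and Setdb1 under 4. The list's median log2 fold change was -0.08, against 0.03 over all genes tested.

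Centromere proteins (21 genes, all in the table) were called in 1 gene higher and 9 lower in 10000 T cells against 5 ng, at a background of 56% of all genes tested. Cenpb, which binds minor satellite DNA at the centromere, was 0.86 lower (SE 0.113), and Cenpf and Cenpe, which act at the kinetochore in mitosis, were 1.23 (SE 0.137) and 1.22 (SE 0.145) lower on the log2 scale. Cenpt, the gene called higher, was at 0.63 (SE 0.202), a call lost without 10000-cell replicate 3. Of the 9, Oip5 and Cenph kept their call under 8 of 11 alternatives and Cenpo and Cenpm under 6. At the smaller inputs, 0 centromere genes were called at 100, 500 and 1000 cells or at 1 ng, 1 at 0.1 ng against a background of 11.2% (Cenpp, 3.08, SE 0.598) and 3 at 0.5 ng against 5.09% (Cenpf -0.67, Cenpc1 0.83 and Mis18a 0.92). Where edgeR called 0, it gave an unadjusted p under 0.05 to 4 of them at 100 cells, 1 at 500, 4 at 1000 and 1 at 1 ng, and DESeq2 called Cenpf at 500 cells and 0 at the other 3 inputs. The calls of Cenpp and Cenpf were lost without any one 5 ng library, and those of Cenpc1 and Mis18a without 5 ng replicate 1 or 3. Leaving out 0.5 ng replicate 1 or 3 also ended the Cenpf call, and leaving out 0.5 ng replicate 2 that of Cenpc1. Of the Olfr genes, 213 passed the filter between 10000 T cells and 5 ng and 208 of these were called higher, and 118 of 118 vomeronasal genes were. The genes that passed did so mainly through the T cell libraries, so these counts describe which rows could be tested.

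The 13 mitochondrially encoded genes summed to 14466 to 20056 CPM in T cells and 21041 to 26065 CPM in diluted RNA. Lars2, whose row collects reads of ribosomal RNA-like sequence in many mouse libraries and is the 1 gene of its list in the table, had 11922 to 17606 CPM in T cells and 9375 to 17992 CPM in diluted RNA. The members took up to 10.5% of the counts of a library, so leaving them out of the total raised the CPM of every other gene by 4.49% to 11.7% in T cells and by 0.443% to 4.46% in diluted RNA.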

How the data were processed

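The authors deposited 1 table of whole-number counts for 22488 genes and 23 libraries, not normalized. Per the submitters' processing notes it rests on HISAT2 2.1.0, featureCounts and build mm8. Even counts made up 57.9% to 70.7% of nonzero counts, so mates may each be counted. Counts are not independent molecules, and floors cover counting error only.

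The members and lists were chosen with earlier results of these data known. Named genes were the 10 members, the 5 genes most like their sum, and of each list the 3 highest genes and those past the threshold. Values of 1 gene of the heterochromatin list are not reported here. CPM is the count over the column total. Groups were compared with edgeR 4.0.16 (R 4.3.3, TMM factors, its filter on low counts, quasi-likelihood test, Benjamini-Hochberg, threshold 0.05), each fit holding the libraries compared. It was also tested on simulated data. DESeq2 1.42.0, other size factors, no filter, replicate number as a block and leaving out each library were the alternatives. Sequences were read from GENCODE M21 with Biopython 1.88.

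Replicate pairs of a group differed beyond counting noise (chi-square per degree of freedom 3.17 to 26.1 over 22 pairs).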

Additional observations from a re-analysis of the deposited data

Results flagged for a closer look

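Untested differences in course between the materials stood out in a reading of paired inputs, 100 cells with 0.1 ng and 1000 cells with 0.5 ng. Each was read against the mean of the largest input of its material. A difference was listed where every library of one material lay on one side and every library of the other on the opposite side. The 500-cell and 1 ng groups were not read in this way. The log2 ratio of the member sum to the Olfr sum was higher by 0.5067 in 3 of 3 libraries at 100 cells against 10000 cells, and lower in 2 of 2 at 0.1 ng against 5 ng, at -0.2111. The same ratio was higher by 0.4814 at 1000 cells against 10000 cells (3 of 3) and lower at 0.5 ng against 5 ng, at -0.4229 (3 of 3). At the inputs not paired it also had opposite signs, at 0.4517 for 500 cells against 10000 cells and -0.2249 for 1 ng against 5 ng. Every library there lay on the same side of the largest input's mean as its group. Without Gm10800 the ratio was higher by 0.1674 at 100 cells and by 0.1357 at 0.1 ng, so the opposite signs rest on Gm10800 there, and the ranges at 0.1 ng and 5 ng overlapped with or without it. Without replicate 3 the value at 100 cells was 0.6197.

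The share of Gm10800 in the member counts was 4.6625 percentage points higher at 100 cells than at 10000 cells, and at 0.1 ng it differed from 5 ng by -5.2055 points. The share of Gm10722 went the other way, at -2.2705 points for 100 cells against 10000 cells and 1.4033 points for 0.1 ng against 5 ng. Its share was 5.01% and 7.48% at 0.1 ng and 3.32% to 6.27% at 5 ng, so these ranges overlapped. Without replicate 3 of the 100-cell group the shifts at 100 cells were 5.08 points for Gm10800 and -2.38 for Gm10722. None of these differences was tested, and the split of counts between similar copies is uncertain.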

How the results depend on the processing

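Counts of genes called moved most. DESeq2 called 348, 1036 and 784 genes at 100, 500 and 1000 cells against 10000 cells, and 2962, 1376 and 107 at 0.1, 0.5 and 1 ng against 5 ng. Without the filter on low counts edgeR called 7 at 100 cells, 42 at 1 ng, 188 for the slope over cell input (107 with it) and 1413 for that over RNA input (799 with it). With replicate number as a block it called 2 at 100 cells, 392 at 0.1 ng, 19 at 1 ng, 47 for the slope over cells and 255 for that over RNA. Same-numbered libraries did not deviate together (residual r -0.0237 to 0.0256 over 36 pairs, 0 over 0.1), so the block marks only a number. Leaving out 1 library at a time gave 0 to 357 at 100 cells, 149 to 505 at 500, 181 to 411 at 1000, 0 to 8075 at 0.1 ng, 172 to 815 at 0.5 ng, 2 to 45 at 1 ng, 14 to 181 for the slope over cells and 474 to 856 for that over RNA. The causes were not tested. The count between 10000 T cells and 5 ng stayed within 1.5 times its value under all 11 alternatives.

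The log2 ratio of the member sum kept its sign under every alternative run. At 0.5 ng that sign says little, since the ratio of 0.107 was below its replicate SD of 0.219. There it fell to 0.0068 without 5 ng replicate 1. Without Gm10800 the log2 ratio of the sum was 0.6302 at 500 cells, 0.2540 at 1000 cells, 3.0981 at 0.1 ng and 3.2357 for 10000 T cells against 5 ng. The member-to-Olfr log2 ratio without Gm10800 was 0.1674, 0.1960 and 0.1936 at 100, 500 and 1000 cells, and turned positive at 0.1 ng, at 0.1357. Against Tas2r, Krtap and Defb genes in place of Olfr it was 0.8055 at 100 cells, 0.5593 at 500 cells, -0.2586 for 10000 T cells against 5 ng and 0.1500 at 1 ng, where its sign turned. Against vomeronasal genes it was 0.3572 at 1000 cells, -0.5905 at 0.1 ng and -0.7750 at 0.5 ng. Of the values for the member sum 65 of 69 alternatives moved less than the replicate SD, and of the member-to-Olfr ratio 51 of 62. That SD is the square root of the summed variances of the 2 groups on the log2 scale. Leaving out 1 library can hardly move a group mean past it and never did, so such alternatives inflate both counts. All 4 moves of the member sum and all 11 of the ratio came from the other settings. At 0.1 ng the 2 libraries and their depth limit precision, and Gm10715, Gm10720 and Gm10721 are near the floor of 3 counts in diluted RNA.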
